A study of Mus musculus with 12 samples.

Results

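Axon guidance ligands and receptors of 4 families, the semaphorins, Slits, netrins and ephrins with their plexin, neuropilin, Robo, netrin and Eph receptors, were followed in mouse superior cervical ganglion (SCG) cells. The list held 49 named genes of these families, though not every member of them. A gene entered when the platform annotation gave at least 1 probe set with that gene as its single symbol, and 48 of the 49 did, out of 18193 genes measured on the array. Ephb2 was not analysed here. The 48 were 26 ligands and 22 receptors: 14 semaphorins, 7 plexins, 2 neuropilins, 3 Slits, 2 Robos, 2 netrins, 3 netrin receptors, 8 Eph receptors and 7 ephrins.

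The study compared calcium channel function of sympathetic ganglion cells in porous scaffolds, on flat surfaces and in fresh tissue. Its arrays served to look at the expression of calcium channel subunits. Messenger RNA of 12 samples, 4 biological replicates in each of 3 groups, was measured on Affymetrix mouse arrays. The first group (3D) was SCG cells grown for 5 days in porous polystyrene scaffolds, the second (2D) was the same kind of cells grown for 5 days on flat dishes, and the third (tissue) was freshly dissected SCG, which served as the stand-in for the state in the animal. All samples came from CD1 mice, given as 21 days old in the sample labels and as neonatal in the methods. Scaffolds and dishes were both coated with collagen and both received the same medium with serum. The dishes are polystyrene in the labels and glass-bottomed in the methods. Cultured cells came from ganglia dissociated with enzymes, a pair of ganglia on average for each dish or scaffold, with no step described that selects neurons, so a level is that of all cells in the culture. Tissue differed from both cultures in dissociation and time in medium as well as in form. The values are log2 expression (RMA), in which 1 unit is a doubling, and they carry no call of whether a gene was detected. Levels were compared between samples for 1 probe set at a time, never between genes.

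Guidance cues steer growing axons by attraction or repulsion. Semaphorins signal through plexins, with neuropilins as co-receptors for most of the secreted class, Slits through Robo receptors, netrins through Dcc and the Unc5 receptors, and ephrins through Eph receptors, where the membrane-bound ephrins can also signal backwards into their own cell. In sympathetic ganglia, secreted semaphorins acting through neuropilin repel axons and help to set where neurons gather. The same families also act in glia, vessels and fibroblasts.

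Against tissue, 11 of the 48 genes passed the test in the same direction in both cultures, a share close to that of all genes called alike in both (22.5%), and both comparisons use the same tissue arrays. Slit2, Sema3b, Plxna1, Plxna2, Plxnb2, Plxnd1, Ephb1 and Efna2 were higher in both cultures than in tissue, and Sema3d, Plxnc1 and Efnb3 were lower in both. Between 3D and 2D no gene of the list passed the test. Plexins were the family with the most genes past the threshold for its size (all genes 35.6% in 3D and 24.1% in 2D). In 3D, 4 of 7 ephrins and Robo1 were lower than in tissue (all genes 15.5%). Of these, the calls of Robo1 and Efna5 were lost when single arrays were left out. Leaving out single arrays also lost the 2D calls of Sema3b, Sema3d, Plxna1, Plxnc1 and Efna2. The 3D calls of Sema3b, Sema3d and Plxnb1 were lost in that way too.

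**Figure D1:**
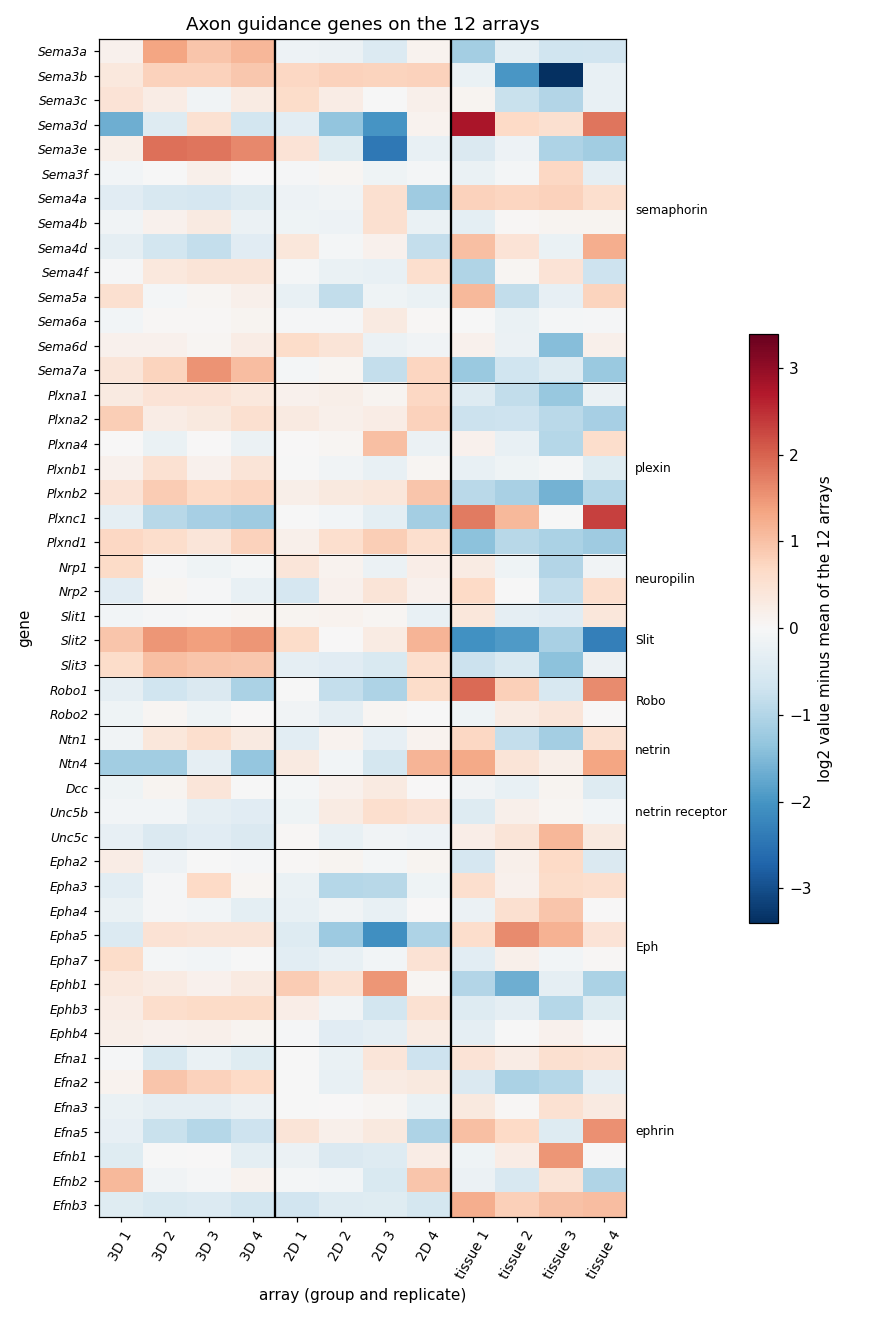
Each row is 1 of the 48 genes and each column 1 of the 12 arrays, with the 4 arrays of 3D at the left, then 2D, then tissue. Colour is the log2 RMA value minus that gene's mean over the 12 arrays, red for above and blue for below. Slit2 is above its mean on all 8 culture arrays, close to it on 2D replicate 2, and blue on all 4 tissue arrays, and Efnb3 is blue on the culture arrays and red on the tissue arrays.

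Some arrays stood apart, and this touches every result. On the values of all 18193 genes, 3D replicate 1 lay slightly nearer to the mean of the 2D arrays (root mean square distance 0.30 log2 units) than to the other 3D arrays (0.31), and 2D replicate 4 lay nearer to the 3D arrays (0.36) than to the other 2D arrays (0.49). The other 6 culture arrays were each nearer to their own group. Tissue replicates 2 and 3 had less spread over probe sets than the rest (SD 2.14 and 1.93, against 2.31 to 2.42 on the other 10 arrays).

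The labelled cell types were checked against their markers, in the tissue and the cultures. Among 10 tested sympathetic neuron markers, 8 were lower in 3D and 4 lower in 2D than in tissue, and none higher. Of 12 general neuron markers 4 were lower in 3D and 2 in 2D, with summed levels (log2) of 15.11 to 15.75 in 3D, 14.61 to 16.07 in 2D and 15.13 to 16.44 in tissue. Satellite glia and Schwann cell markers had 4 higher and 1 lower of 7 in each culture. Dividing cell markers were higher in both cultures for 7 of 7, with summed levels of 12.33 to 12.83 in 3D, 12.15 to 12.74 in 2D and 8.17 to 8.83 in tissue. Skeletal muscle markers, lower for 5 of 8 in 3D and 4 of 8 in 2D, had summed levels of 8.66 to 8.83 in 3D and 8.59 to 8.81 in 2D, against 8.95 on tissue replicate 1 and 11.77 to 12.53 on the other 3 tissue arrays. Endothelial markers were lower for 5 and 4 of 8 (3D, then 2D), macrophage markers had 1 higher and 6 lower of 8 in 3D and 1 higher and 1 lower in 2D, mural cell markers had 2 higher and 1 lower of 6 in 3D and 3 higher and 1 lower in 2D, and fibroblast markers were lower for 0 of 6 in 3D and 2 of 6 in 2D. Sympathetic neuron markers summed to 13.81 to 14.65 in 3D, 13.45 to 15.19 in 2D and 15.17 to 16.31 in tissue. In bulk samples, fewer cells of a type and less RNA per cell cannot be told apart, and the part of cell makeup in the results below was not tested.

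Against tissue, 25 of the 48 genes passed the test in 3D, 14 higher and 11 lower (limma, Benjamini-Hochberg adjusted p under 0.05 over 45037 probe sets). Of all 18193 genes, 35.6% passed it in that comparison, 20.1% higher and 15.5% lower. In 2D, 13 of the 48 passed, 8 higher and 5 lower, where 24.1% of all genes passed, 14.3% higher and 9.87% lower. Both comparisons share the 4 tissue arrays, so their values are set side by side and not used as support for each other. Arrays did not overlap between groups for 23 of the 48 genes in 3D against tissue (all genes 42.4%) and for 14 in 2D against tissue (all genes 33.8%). The methods' t-test, which takes each gene's own variance, called, after adjustment, 13 higher and 7 lower in 3D (all genes 28.2%, 15.8% higher and 12.4% lower) and 5 higher and 3 lower in 2D (all genes 14.7%, 8.56% higher and 6.11% lower). Without adjustment it called 10 higher and 8 lower in 2D (all genes 36.7%, 19.5% higher and 17.2% lower). Where no arrays overlapped the exact permutation test gave the smallest p that 4 against 4 arrays allow, 0.0286 (two-sided, 70 splits), and the number of arrays limits what any single gene can show. The p-values measure the spread between the labelled biological replicates.

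The median log2 difference from tissue over the 48 genes was 0.09 in 3D and 0.08 in 2D, beside −0.03 in both over all genes, and the median size of a difference was 0.72 in 3D and 0.55 in 2D, beside 0.46 and 0.44 over all genes. Leaving out 3D replicate 2 left 7 lower calls in 3D, and leaving out 2D replicate 2 left 3 lower calls in 2D. In 2D the higher calls numbered 5 without 2D replicate 1, 2D replicate 4 or tissue replicate 2, and the lower calls 8 without tissue replicate 3. The share of all genes was not counted for these fits. Without tissue replicates 2 and 3 together, an alternative added after seeing the data, 17 were higher and 15 lower in 3D (all genes 47.4%) and 7 higher and 9 lower in 2D (all genes 22.4%).

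**Figure D2:**
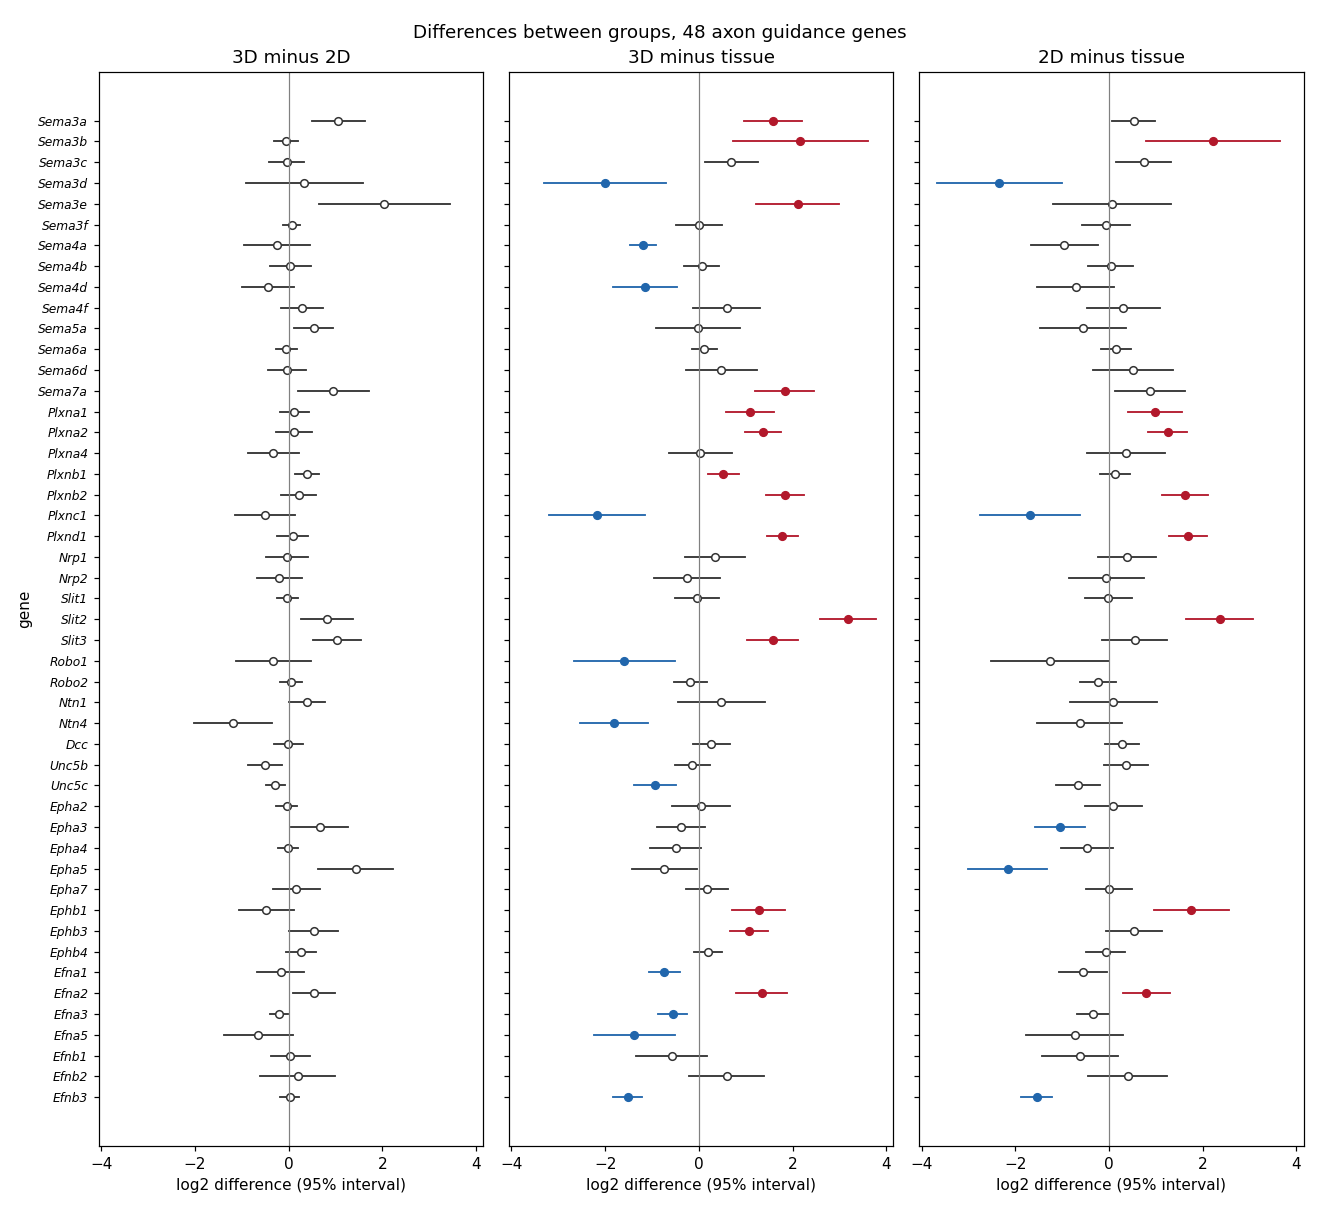
Each row is a gene, and each point its log2 difference for 1 comparison, 3D minus 2D, 3D minus tissue and 2D minus tissue, with the 95% confidence interval of limma. Filled points passed the test, red for higher and blue for lower, and open points did not. No point is filled in 3D minus 2D, 25 are in 3D minus tissue and 13 in 2D minus tissue.

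Slits, secreted proteins that repel axons, held the largest difference of the list. Slit2 read 9.44, 10.01, 9.89 and 10.01 on 3D replicates 1 to 4, 9.13, 8.52, 8.77 and 9.66 on the 2D arrays and 6.46, 6.59, 7.40 and 6.17 on the tissue arrays. Every culture array was above every tissue array. Slit2 was 9.08-fold higher in 3D than in tissue (log2 difference 3.18 ± 0.26 SE, adjusted p = 6.57e-05, limma) and 5.15-fold higher in 2D than in tissue (2.37 ± 0.32, adjusted p = 0.00180). Of its 2 other probe sets 1 passed the same test in 3D against tissue (log2 difference 1.06, adjusted p = 0.00316) and none did in 2D.

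Slit3 read 9.53, 9.92, 9.85 and 9.81 in 3D, 8.59, 8.53, 8.39 and 9.47 in 2D and 8.19, 8.38, 7.52 and 8.70 in tissue. The 3D arrays were above all tissue arrays, and 2D replicate 4 was the 1 array of 2D that stood near 3D. Slit3 was 2.99-fold higher in 3D than in tissue (1.58 ± 0.24, adjusted p = 0.00145, limma), and its 2D difference of 0.55 ± 0.31 did not pass (adjusted p = 0.208). Slit1 ranged from 6.41 to 6.58 in 3D, 6.27 to 6.62 in 2D and 6.12 to 6.90 in tissue, and its differences from tissue of −0.04 and −0.02 did not pass.

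Of the Slit receptors, Robo1 ran the other way. Its values were 5.56, 5.19, 5.39 and 4.80 in 3D, 5.85, 5.07, 4.84 and 6.51 in 2D and 7.79, 6.68, 5.34 and 7.49 in tissue. Tissue replicate 3 overlapped both cultures. In 3D Robo1 was 3.01-fold lower than in tissue (−1.59 ± 0.48, adjusted p = 0.0325, limma), and the 2D difference of −1.26 ± 0.56 did not pass (adjusted p = 0.126). The 3D call was lost, with adjusted p of 0.0566 to 0.0903, without any 1 of the 4 arrays of 3D or without tissue replicate 1, 2 or 4. Without tissue replicates 2 and 3 together Robo1 passed as lower in 3D (−2.41, adjusted p = 6.14e-05) and in 2D (−2.07, adjusted p = 0.0257). Its 2 other probe sets did not pass in 3D with all arrays (adjusted p 0.109 and 0.0776). Robo2 stayed between 3.02 and 3.74 on all 12 arrays, below the value of 6 under which probe sets were treated as dim, and did not pass in either comparison. All 3D values of Robo1 also lay below 6.

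Plexins, the signalling receptors of semaphorins, had 5 of 7 genes higher and 1 lower in 3D than in tissue (all genes 20.1% and 15.5%). In 2D 4 were higher and 1 lower (all genes 14.3% and 9.87%). Plxnd1, the receptor of Sema3e, read 11.52, 11.40, 11.22 and 11.58 in 3D, 10.98, 11.39, 11.64 and 11.38 in 2D and 9.42, 9.86, 9.74 and 9.59 in tissue. All culture arrays were above all tissue arrays, and the cultures overlapped. Plxnd1 was 3.43-fold higher in 3D than in tissue (1.78 ± 0.15, adjusted p = 6.27e-05, limma) and 3.24-fold higher in 2D than in tissue (1.70 ± 0.18, adjusted p = 5.97e-04).

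Plxnb2, a receptor of class 4 semaphorins, read 10.24, 10.64, 10.47 and 10.51 in 3D, 9.99, 10.11, 10.18 and 10.73 in 2D and 8.86, 8.68, 8.17 and 8.81 in tissue. It was higher on every culture array than on any tissue array. Its difference from tissue was 1.84 ± 0.18 in 3D, 3.57-fold (adjusted p = 1.60e-04), and 1.62 ± 0.22 in 2D, 3.08-fold (adjusted p = 0.00189). Plxna2 read 9.48, 8.90, 8.98 and 9.17 in 3D, 8.95, 8.82, 8.88 and 9.43 in 2D and 7.91, 7.93, 7.72 and 7.50 in tissue. It was 2.58-fold higher in 3D (adjusted p = 5.27e-04) and 2.39-fold higher in 2D (adjusted p = 0.00258), also with no overlap with tissue.

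Plxna1, like Plxna2 a partner of neuropilins, was 2.14-fold higher in 3D than in tissue (1.10 ± 0.23, adjusted p = 0.00643, limma) and 1.97-fold higher in 2D (0.98 ± 0.26, adjusted p = 0.0276). Without tissue replicates 2 and 3 together its difference was 0.72 in 3D, which passed, and 0.61 in 2D, which did not (adjusted p = 0.0791). Its 2D call was also lost without 2D replicate 1, 2D replicate 2, 2D replicate 4 or tissue replicate 2 (adjusted p 0.0578 to 0.0803). The dimmer probe set of Plxna1 did not pass in 3D (0.04, adjusted p = 0.856, limma) or in 2D (0.04, adjusted p = 0.873). Plxnb1, the main receptor of Sema4d, was 1.44-fold higher in 3D (adjusted p = 0.0235), lost without 3D replicate 2 or 4 (adjusted p 0.0811 and 0.0800). That call was also lost when the arrays were rescaled by cyclic loess or centred on their bright probe sets. In 2D Plxnb1, at 0.13, did not pass at its brightest probe set. Its dimmer probe set was higher in both cultures (1.68 in 3D, adjusted p = 6.26e-04, and 0.96 in 2D, adjusted p = 0.0231, limma). Plxna4, at 0.03 in 3D and 0.36 in 2D, did not pass. Without tissue replicates 2 and 3 Plxna4 turned to −0.46 in 3D and passed as lower (adjusted p = 0.0372).

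Plxnc1, the receptor of Sema7a, was the plexin that was lower. It read 8.06, 7.43, 7.25 and 7.17 in 3D, 8.36, 8.29, 8.03 and 7.22 in 2D and 10.13, 9.47, 8.36 and 10.68 in tissue. No 3D array overlapped with tissue, and 2D replicate 1 equalled tissue replicate 3. Plxnc1 was 4.54-fold lower in 3D than in tissue (−2.18 ± 0.45, adjusted p = 0.00666, limma) and 3.22-fold lower in 2D than in tissue (−1.69 ± 0.47, adjusted p = 0.0352). The 2D call was lost without any 1 of the arrays of 2D or without tissue replicate 1, 2 or 4 (adjusted p 0.0537 to 0.0923). Of its 5 other probe sets, 3 were also past the threshold and lower in 3D and 2 in 2D.

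The start regions of genes that moved the same way in both cultures are shown because 5 of the 11 were plexins and the promoters can be read side by side. RefSeq promoters (mouse build GRCm38.p6, 250 bases before the start, 5′ to 3′ on the gene's strand) were matched for 8 of the 11 genes and gave 9 promoters. Capitals mark any match, on either strand, to GGGCGG (the motif of Sp1-like factors), TATAAA (the TATA box), TGANTCA (the motif of AP-1) and GGAATG (a motif of TEAD factors). Plxnb2 lies on the minus strand at chr15:89180789-89181038, Plxnd1 on the minus strand at chr6:115995006-115995255, Slit2 on the plus strand at chr5:47982905-47983154, Plxnc1 on the minus strand at chr10:94944846-94945095 and Sema3d on the plus strand at chr5:12382916-12383165.
Plxnb2: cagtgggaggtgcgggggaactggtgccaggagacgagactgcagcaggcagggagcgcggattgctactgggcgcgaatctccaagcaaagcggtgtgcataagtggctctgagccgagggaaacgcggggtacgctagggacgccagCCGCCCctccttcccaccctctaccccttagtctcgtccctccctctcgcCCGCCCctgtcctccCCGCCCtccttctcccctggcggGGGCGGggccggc
Plxnd1: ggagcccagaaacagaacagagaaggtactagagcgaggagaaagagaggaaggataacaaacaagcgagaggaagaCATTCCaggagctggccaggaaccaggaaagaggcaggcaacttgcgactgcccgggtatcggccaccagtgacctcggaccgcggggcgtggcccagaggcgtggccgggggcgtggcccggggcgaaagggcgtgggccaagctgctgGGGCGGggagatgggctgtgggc
Slit2: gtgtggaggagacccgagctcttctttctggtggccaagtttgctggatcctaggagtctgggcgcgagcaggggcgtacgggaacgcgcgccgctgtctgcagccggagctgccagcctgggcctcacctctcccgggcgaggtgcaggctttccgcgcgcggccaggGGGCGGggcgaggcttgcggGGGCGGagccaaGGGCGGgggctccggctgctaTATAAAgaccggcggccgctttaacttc
Plxnc1: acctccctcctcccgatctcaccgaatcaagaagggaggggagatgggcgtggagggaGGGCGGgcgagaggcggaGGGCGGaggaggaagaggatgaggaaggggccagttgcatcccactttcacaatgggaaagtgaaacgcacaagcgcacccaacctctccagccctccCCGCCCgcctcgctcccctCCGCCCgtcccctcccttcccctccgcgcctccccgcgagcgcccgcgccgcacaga
Sema3d: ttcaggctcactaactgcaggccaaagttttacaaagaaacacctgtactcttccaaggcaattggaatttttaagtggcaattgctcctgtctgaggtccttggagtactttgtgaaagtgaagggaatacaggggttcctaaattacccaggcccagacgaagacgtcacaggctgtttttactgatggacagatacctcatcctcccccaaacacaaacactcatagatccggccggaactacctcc
Of the 9 promoters 7 held GGGCGG, where 32.7% of all 32851 promoters of this length held it. Plxnb2, higher in both cultures, has 2 promoters in the table, the one shown with 4 such matches and one at chr15:89173952-89174201 with 3 and a GC content of 63.6%. Plxnc1, lower in both, had 4. TATAAA was found in 1 of the 9, that of Slit2 (all promoters 12.4%), GGAATG in 1 of the 9, that of Plxnd1 (12.6%), and TGANTCA in none (6.7%). GC content was 69.2% for the Plxnb2 promoter shown, 64.8% for Plxnd1, 69.6% for Slit2 and 68.8% for Plxnc1 but 46.8% for Sema3d, which held none of the 4 motifs, and the median over all promoters was 52.4%. These are matches of letters only and were not tested.

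Semaphorins had 4 of 14 genes higher and 3 lower in 3D than in tissue (all genes 20.1% and 15.5%). In 2D 1 was higher and 1 lower (all genes 14.3% and 9.87%). Sema3b, a secreted semaphorin, read 10.53, 10.94, 10.95 and 11.07 in 3D, 10.88, 10.95, 10.92 and 10.95 in 2D and 9.93, 8.20, 6.77 and 9.91 in tissue. The culture arrays lay close together and the tissue arrays wide apart, with tissue replicates 2 and 3 lowest. Sema3b was 4.50-fold higher in 3D (2.17 ± 0.64, adjusted p = 0.0298, limma) and 4.67-fold higher in 2D (2.22 ± 0.63, adjusted p = 0.0364). Both calls were lost without tissue replicate 2 or without any 1 of the arrays of the culture concerned (adjusted p 0.0561 to 0.0853 in 3D and 0.0728 to 0.104 in 2D). Without tissue replicates 2 and 3 together the differences were 0.95 in 3D and 1.01 in 2D, both past the threshold.

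Sema3e, which binds Plxnd1 without a neuropilin, read 9.27, 10.94, 10.87 and 10.70 in 3D, 9.52, 8.66, 6.62 and 8.80 in 2D and 8.56, 8.89, 8.0 and 7.89 in tissue. All 3D arrays were above all tissue arrays, with 3D replicate 1 the lowest of them and within the range of 2D. Sema3e was 4.32-fold higher in 3D (2.11 ± 0.39, adjusted p = 0.00389, limma), and its 3 other probe sets were each past the threshold too. In 2D the brightest probe set's difference was 0.07 ± 0.56 and did not pass (adjusted p = 0.938), and 1 of the 3 others passed (1.17, adjusted p = 0.0412). Sema3e and its receptor Plxnd1 were both higher in 3D than in tissue.

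Sema7a, a semaphorin anchored by lipid in the membrane, read 8.93, 9.28, 10.05 and 9.57 in 3D, 8.45, 8.60, 7.72 and 9.25 in 2D and 7.28, 7.86, 8.09 and 7.26 in tissue. Its arrays in 3D did not overlap with tissue. It was 3.57-fold higher in 3D (1.84 ± 0.28, adjusted p = 0.00146, limma), while the 2D difference of 0.88 ± 0.33 did not pass (adjusted p = 0.0820). The dimmer probe set of Sema7a did not pass in 3D (0.135, adjusted p = 0.721, limma). At their brightest probe sets, the ligand Sema7a was higher and its receptor Plxnc1 lower in 3D than in tissue.

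Sema3a, the secreted repellent that acts on sympathetic axons through Nrp1 and A-type plexins, read 6.31, 7.50, 7.11 and 7.30 in 3D, 6.01, 5.96, 5.70 and 6.30 in 2D and 5.03, 5.83, 5.50 and 5.51 in tissue. Every 3D array was above every 2D and every tissue array. All tissue values lay below the dim limit of 6. Sema3a was 3.01-fold higher in 3D than in tissue (1.59 ± 0.27, adjusted p = 0.00271, limma), and 2D, at 0.53 ± 0.21, did not pass (adjusted p = 0.0925). Of the 2 dimmer probe sets of Sema3a, 1 passed as higher in 2D (0.58, adjusted p = 0.0469). Nrp1, its co-receptor, read 11.88, 11.19, 11.08 and 11.15 in 3D, 11.64, 11.33, 11.03 and 11.46 in 2D and 11.50, 11.09, 10.23 and 11.10 in tissue, with all 3 groups overlapping. Nrp1 did not pass, at 0.35 ± 0.29 in 3D and 0.39 ± 0.27 in 2D against tissue.

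Among the semaphorins lower in culture, Sema3d read 4.27, 5.49, 6.44 and 5.31 in 3D, 5.57, 4.60, 3.93 and 6.06 in 2D and 8.70, 6.60, 6.48 and 7.75 in tissue. No culture array reached the tissue arrays. All culture values but 6.44 and 6.06 lay below the dim limit of 6. It was 4.01-fold lower in 3D (−2.01 ± 0.57, adjusted p = 0.0264, limma) and 5.07-fold lower in 2D (−2.34 ± 0.59, adjusted p = 0.0241). The 3D call was lost without 3D replicate 1, 2 or 4 (adjusted p 0.0598 to 0.0699) and under cyclic loess, and the 2D call without 2D replicate 2 or 3 (adjusted p 0.0694 and 0.0554). The dimmer probe set of Sema3d did not pass (−0.515 in 3D, adjusted p = 0.0771, and −0.65 in 2D, adjusted p = 0.0683, limma).

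Sema4a, a membrane-spanning semaphorin, read 7.35, 7.18, 7.17 and 7.29 in 3D, 7.55, 7.61, 8.28 and 6.53 in 2D and 8.51, 8.45, 8.52 and 8.29 in tissue. The 3D arrays lay close together and below tissue. It was 2.29-fold lower in 3D than in tissue (−1.20 ± 0.12, adjusted p = 1.77e-04, limma), and the 2D difference of −0.95 ± 0.32 did not pass (adjusted p = 0.0614). Sema4d, the ligand of Plxnb1, read 8.52, 8.20, 8.02 and 8.43 in 3D, 9.21, 8.75, 8.97 and 8.01 in 2D and 9.85, 9.30, 8.59 and 10.05 in tissue. Its 3D arrays lay just under the lowest tissue array, replicate 3. In 3D it was 2.23-fold lower (−1.16 ± 0.30, adjusted p = 0.0185), a call lost without 3D replicate 2 or 3 (adjusted p 0.0537 and 0.0568), and in 2D the difference of −0.71 did not pass.

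The other semaphorins, Sema3c, Sema3f, Sema4b, Sema4f, Sema5a, Sema6a and Sema6d, did not pass in either comparison with tissue. Their differences ran from −0.02 for Sema5a to 0.70 for Sema3c in 3D. In 2D they ran from −0.55 for Sema5a to 0.74 for Sema3c. These values are those of each gene's brightest probe set, and for 4 of the genes a dimmer one passed in both cultures. Both dimmer probe sets of Sema3f were higher (1.93 and 1.15 in 3D, 2.19 and 1.19 in 2D). A dimmer probe set was also higher for Sema3c (1.54 in 3D and 1.59 in 2D) and for Sema4f (1.43 in 3D and 1.06 in 2D), and one of Sema5a was lower (−1.71 in 3D and −1.86 in 2D). For Sema6d 1 of the 3 dimmer probe sets was higher in 3D. Nrp2, the other neuropilin, did not pass at its brightest probe set (−0.26 ± 0.31 in 3D and −0.06 ± 0.35 in 2D).

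**Figure D3:**
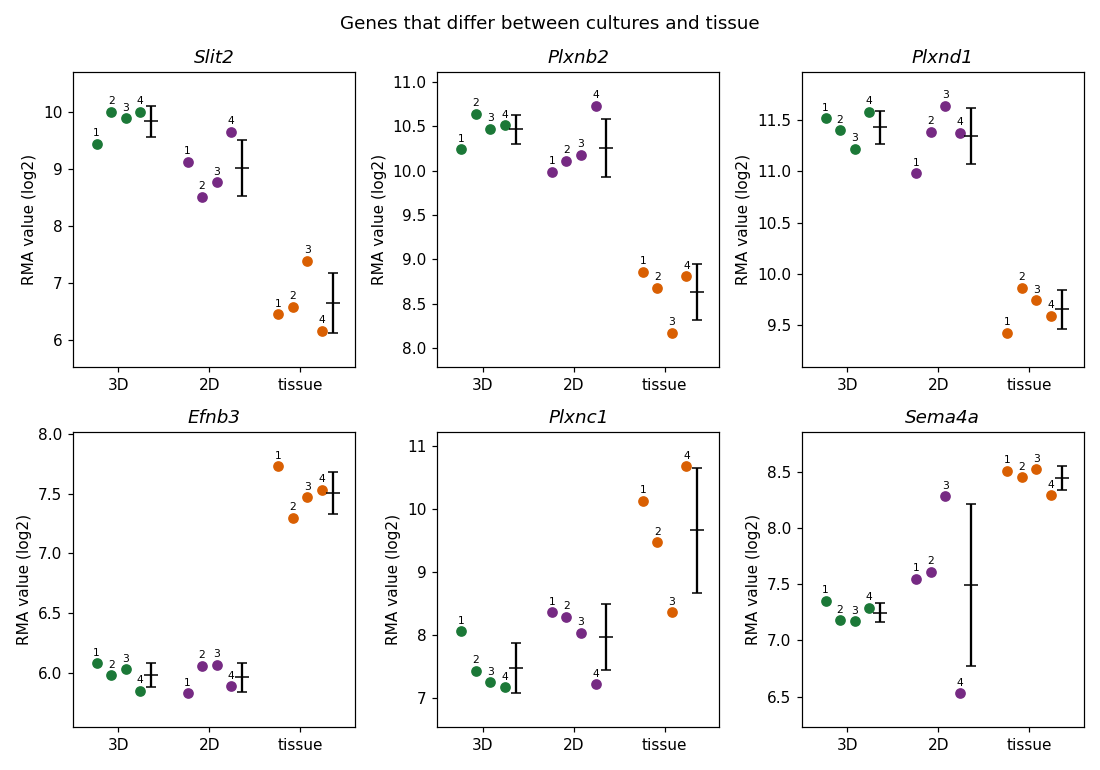
Each panel is 1 gene among those with the largest differences from tissue. Points are arrays numbered by replicate, and the bar beside each group is the mean ± SD (n = 4), with 3D left of 2D and tissue at the right, on the log2 RMA scale. Slit2, Plxnd1 and Plxnb2 lie higher on all culture arrays and Efnb3 lower on all of them.

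Of the 2 netrins and 3 netrin receptors, Ntn4 and Unc5c were lower in 3D than in tissue (all genes 15.5%). None passed in 2D at its brightest probe set (all genes 24.1%). Ntn4, a netrin of basement membranes, read 7.61, 7.60, 8.48 and 7.49 in 3D, 9.09, 8.70, 8.19 and 9.94 in 2D and 10.08, 9.23, 8.98 and 10.12 in tissue. Each 3D array was below each tissue array. Ntn4 was 3.50-fold lower in 3D (−1.81 ± 0.32, adjusted p = 0.00318, limma), and the 2D difference of −0.62 ± 0.40 did not pass (adjusted p = 0.264). Its dimmer probe set did not pass in 3D (−0.04, adjusted p = 0.854, limma).

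Unc5c, a receptor that carries the repulsive response to netrin, was 1.92-fold lower in 3D than in tissue (−0.94 ± 0.20, adjusted p = 0.00740), with arrays of 7.96 to 8.18 in 3D, 8.20 to 8.50 in 2D and 8.69 to 9.57 in tissue. In 2D its difference was −0.66 ± 0.21 (adjusted p = 0.0516). The dimmer probe set of Unc5c did not pass in 3D and had the opposite sign (0.155, adjusted p = 0.331, limma). Ntn1, the classic attractant, was 0.48 ± 0.41 in 3D and 0.09 ± 0.41 in 2D relative to tissue and did not pass. Its direction rested on tissue replicates 2 and 3: without both, the difference was −0.32 in 3D and −0.70 in 2D, the second past the threshold as lower (adjusted p = 0.0376). Unc5b, another repulsive netrin receptor, did not pass at its brightest probe set (−0.14 in 3D and 0.37 in 2D), while its dimmer one was higher in both cultures (0.67 in 3D, adjusted p = 0.0360, and 1.31 in 2D, adjusted p = 0.0449).

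Dcc, the receptor for attraction to netrin, did not pass at its brightest probe set (0.27 in 3D and 0.28 in 2D), although 2 dimmer Dcc probe sets did. The first of these read 5.71, 4.90, 5.09 and 5.04 in 3D, 4.53, 4.76, 3.98 and 4.56 in 2D and 7.18, 7.57, 6.66 and 6.90 in tissue. Its difference from tissue was −1.89 in 3D (adjusted p = 5.96e-04) and −2.62 in 2D (adjusted p = 2.82e-04), and that of the second was −0.80 in 3D (adjusted p = 0.0488) and −1.29 in 2D (adjusted p = 0.00207). These probe sets, and the dimmer ones of other genes that are named, were singled out after their values were seen. For Nrp2 the 3 dimmer probe sets were all past the threshold and lower, with differences of −1.25 (adjusted p = 6.39e-04), −1.34 (1.25e-04) and −1.03 (0.00332) in 3D and adjusted p of 0.0103, 0.00760 and 0.0234 in 2D. All 4 Nrp2 probe sets had a negative difference from tissue in both cultures, and without tissue replicates 2 and 3 the brightest passed too in 3D (−0.77, adjusted p = 0.00283). The Dcc probe sets differed in sign.

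**Figure D4:**
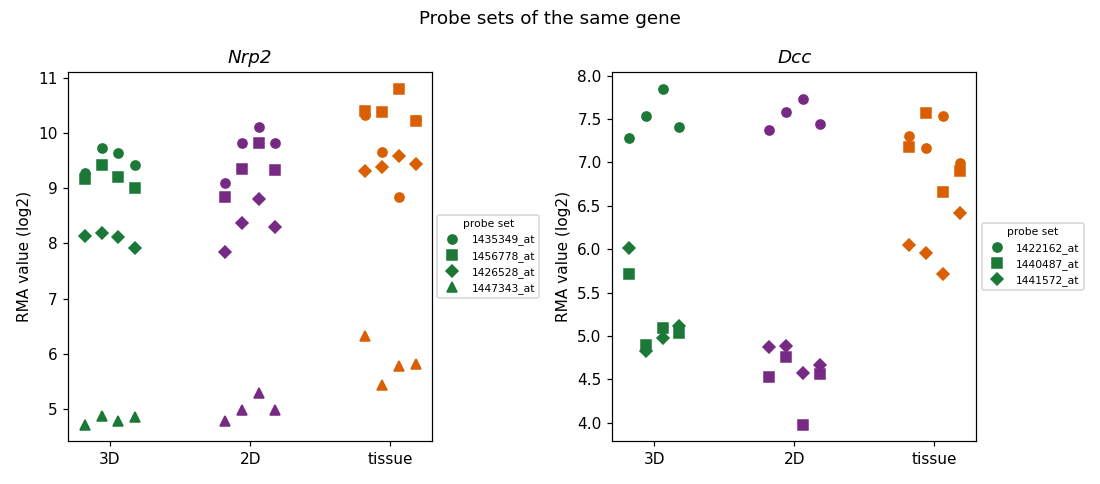
The panels show each probe set of Dcc and Nrp2, with the log2 RMA value of every array, 3D left of 2D and tissue at the right, points in replicate order. The brightest probe set of each gene shows overlapping groups, whereas the other 2 of Dcc and the other 3 of Nrp2 have lower means in the cultures. In the dimmest of Dcc, 3D replicate 1 (6.02) overlaps tissue replicates 2 (5.96) and 3 (5.72).

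Ephs, receptors that signal on contact between cells, had 2 of 8 higher in 3D than in tissue (all genes 20.1%). In 2D 1 was higher and 2 lower (all genes 14.3% and 9.87%). Ephb1, a receptor of the transmembrane ephrins, read 8.19, 8.12, 7.98 and 8.14 in 3D, 8.70, 8.37, 9.35 and 7.92 in 2D and 6.85, 6.18, 7.53 and 6.76 in tissue. All culture arrays were above the tissue arrays. Ephb1 was 2.42-fold higher in 3D (1.28 ± 0.25, adjusted p = 0.00529, limma) and 3.38-fold higher in 2D (1.76 ± 0.35, adjusted p = 0.0103). Ephb3, of the same receptor class, was 2.10-fold higher in 3D (1.07 ± 0.18, adjusted p = 0.00245) and at 0.53 in 2D did not pass.

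Epha5 and Epha3, receptors of the lipid-anchored ephrins, were lower in 2D than in tissue. Epha5 read 9.81, 10.76, 10.72 and 10.71 in 3D, 9.84, 9.04, 8.18 and 9.23 in 2D and 10.88, 11.87, 11.46 and 10.74 in tissue. No 2D array reached tissue, and 1 array of 3D did. Epha5 was 4.48-fold lower in 2D (−2.17 ± 0.37, adjusted p = 0.00528, limma), and in 3D the difference of −0.74 ± 0.30 did not pass (adjusted p = 0.0897). Its 3 other probe sets gave 0.16, 0.54 and 0.64 in 3D against tissue, the last past the threshold (adjusted p = 0.0467), and −0.81, −0.41 and −0.40 in 2D, none of them past it.

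Epha3 read 4.77, 5.11, 5.82 and 5.21 in 3D, 4.91, 4.18, 4.19 and 4.99 in 2D and 5.70, 5.29, 5.76 and 5.71 in tissue, all below the dim limit of 6. Its 2D arrays lay under all tissue arrays, and its 3D arrays overlapped tissue. It was 2.07-fold lower in 2D (−1.05 ± 0.23, adjusted p = 0.0153), a call lost under cyclic loess and for the mean of its probe sets. In 3D, at −0.39, it did not pass, while 1 of its 3 dimmer probe sets passed as higher (0.48, adjusted p = 0.0279, limma). Epha2, Epha4, Epha7 and Ephb4 did not pass in either comparison at their brightest probe sets. Their differences were −0.49 to 0.19 in 3D and −0.47 to 0.09 in 2D. Of the 3 dimmer probe sets of Epha7, 1 (mean 4.64 over the 12 arrays) was lower in both cultures. It differed by −0.685 in 3D (adjusted p = 0.0341, limma) and −0.925 in 2D (adjusted p = 0.00327).

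Ephrins had 1 of 7 genes higher and 4 lower in 3D than in tissue (all genes 20.1% and 15.5%). In 2D 1 was higher and 1 lower (all genes 14.3% and 9.87%). Efnb3, a transmembrane ephrin, read 6.08, 5.98, 6.03 and 5.85 in 3D, 5.83, 6.06, 6.07 and 5.89 in 2D and 7.73, 7.30, 7.47 and 7.53 in tissue. All culture arrays lay between 5.83 and 6.08, close to the dim limit of 6 and below every tissue array. Efnb3 was 2.87-fold lower in 3D (−1.52 ± 0.13, adjusted p = 8.88e-05, limma) and 2.92-fold lower in 2D (−1.55 ± 0.15, adjusted p = 3.38e-04).

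Efna2, a lipid-anchored ephrin, was 2.54-fold higher in 3D (1.34 ± 0.24, adjusted p = 0.00316) and 1.74-fold higher in 2D (0.80 ± 0.22, adjusted p = 0.0346). The 2D call of Efna2 did not survive removal of tissue replicate 2, tissue replicate 3 or any array of 2D but replicate 2 (adjusted p 0.0578 to 0.0969), under cyclic loess and centring, and without tissue replicates 2 and 3 together (0.48, adjusted p = 0.126). Efna5 read 9.24, 8.76, 8.53 and 8.80 in 3D, 9.95, 9.68, 9.83 and 8.45 in 2D and 10.54, 10.17, 9.07 and 11.05 in tissue, where tissue replicate 3 overlapped both cultures. It was 2.59-fold lower in 3D (−1.38 ± 0.38, adjusted p = 0.0230), lost without 3D replicate 2, 3 or 4 or tissue replicate 2 (adjusted p 0.0571 to 0.0665), and did not pass in 2D (−0.73). Efna1 (−0.74, adjusted p = 0.00536) and Efna3 (−0.56, adjusted p = 0.0135) were lower in 3D, while in 2D they read −0.56 and −0.34 and did not pass. The Efna3 call was lost with its highest-SD probe set. In 3D the dimmer probe sets of Efna1 (−0.125), Efna3 (−0.405) and Efna5 (0.18) did not pass (adjusted p 0.603, 0.0976 and 0.351, limma). Efnb1 and Efnb2 did not pass in either comparison at their brightest probe sets. Of the 3 dimmer probe sets of Efnb2, 1 was higher in both cultures (1.14 in 3D, adjusted p = 0.00793, and 1.045 in 2D, adjusted p = 0.0362, limma).

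Between 3D and 2D, 0 of the 48 genes passed the adjusted test, where 0.0165% of all genes did (3 of 18193). At an unadjusted p under 0.05, limma called 16 of the 48 (all genes 13.1%), and the methods' t-test called 11, 7 higher and 4 lower (all genes 11.6%, 7.23% higher and 4.41% lower), and 0 after adjustment (all genes 0.00%). Arrays of 3D and 2D did not overlap for 5 of the 48 genes (all genes 7.36%), Sema3a, Sema5a, Plxnb1 and Slit3 with 3D higher (all genes 4.49%) and Unc5c with 3D lower (all genes 2.87%). Summed neuron markers were highest among the 3D arrays on replicate 1 (15.75) and lowest among the 2D arrays on replicate 4 (14.61), which are the 2 arrays that lay nearer to the other culture. Their part in the differences was not tested.

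The widest gaps in the means were those of Sema3e (2.05 ± 0.62, 4.13-fold higher in 3D, adjusted p = 0.281), Epha5 (1.43 ± 0.35, adjusted p = 0.211), Ntn4 (−1.19 ± 0.37, adjusted p = 0.292) and Sema3a (1.06 ± 0.25, adjusted p = 0.197). Slit3 differed by 1.03 ± 0.22 (95% interval 0.52 to 1.54, adjusted p = 0.189) and Sema7a by 0.95 ± 0.33 (adjusted p = 0.340). None passed. Without 2D replicate 4, Slit3 alone passed (1.27, adjusted p = 0.0179). A missed threshold does not show that the cultures were alike: for Sema3e the interval of the difference ran from 0.64 to 3.45.

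With both arrays nearer to the other culture left out together, an alternative chosen after seeing the data on the values of these same arrays, 10 of the 48 genes passed between 3D and 2D, 7 higher and 3 lower in 3D, where 7.46% of all genes passed, 2.45% higher and 5.01% lower. Sema3a (1.41), Slit3 (1.36), Slit2 (1.16), Sema7a, Sema4f, Plxnb2 and Efna2 were higher, and Efna5 (−1.12), Plxnc1 (−0.94) and Sema4d were lower. Arrays picked for where they lie make their groups look further apart, so these calls are a description.

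**Figure D5:**
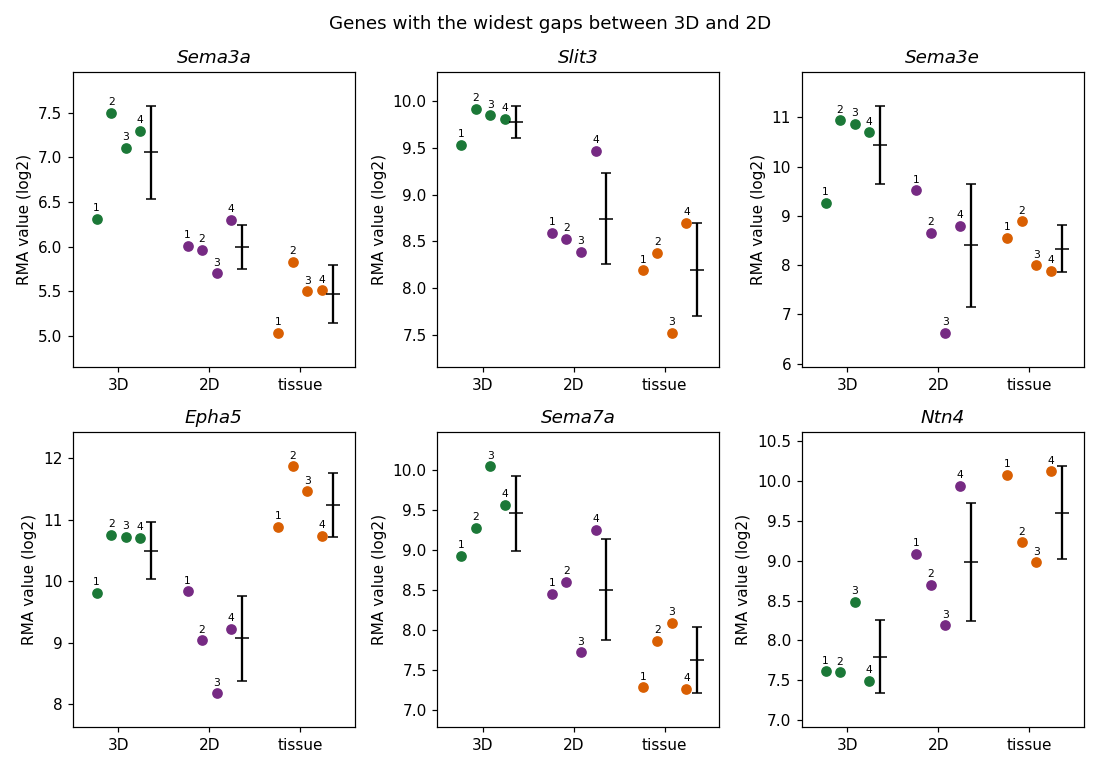
The 6 genes with the widest gaps between the means of 3D and 2D are plotted, each with its 4 arrays per group numbered by replicate, the mean ± SD (n = 4) as a bar and log2 RMA values on the vertical axis. Tissue is at the right. On the panels of Slit3 and Sema7a 2D replicate 4 stands nearest to 3D, and on that of Sema3e 3D replicate 1 stands within 2D.

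Other genes of the same pathways were counted as a list of 28 further guidance ligands and receptors and a list of 37 co-receptors and cytoplasmic effectors. Of the 28, 3 were higher and 8 lower in 3D than in tissue (all genes 20.1% and 15.5%). In 2D 1 was higher and 5 lower (all genes 14.3% and 9.87%), and none passed between 3D and 2D (all genes 0.0165%). Flrt3, a membrane protein that binds Unc5 receptors, was higher in both cultures (2.93 in 3D, adjusted p = 1.63e-04, and 2.41 in 2D, adjusted p = 0.00130), and Flrt2, of the same family, was lower in both (−2.07, adjusted p = 9.29e-04, and −1.95, adjusted p = 0.0172). Plxnb3 was higher in 3D (1.48, adjusted p = 0.00101), and Robo4 was lower in both cultures (−0.78 in 3D, adjusted p = 0.00593, and −0.81 in 2D, adjusted p = 0.0119).

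Of the 37 effectors, 12 were higher and 9 lower in 3D than in tissue (all genes 20.1% and 15.5%). In 2D 10 were higher and 0 lower (all genes 14.3% and 9.87%), and none passed between 3D and 2D (all genes 0.0165%). Srgap2, which acts below Robo receptors, was higher in both cultures (1.39 in 3D, adjusted p = 5.88e-04, and 1.09 in 2D, adjusted p = 0.00366), as were Dock1, an activator of Rac (2.14, adjusted p = 2.81e-04, and 1.65, adjusted p = 0.00383), and Pdzrn3, a ubiquitin ligase (4.95, adjusted p = 4.48e-04, and 4.67, adjusted p = 0.00153). The median difference from tissue was −0.24 in 3D and −0.32 in 2D over the 28 genes and 0.53 in 3D and 0.43 in 2D over the 37. Between 3D and 2D, Flrt3 (0.52, adjusted p = 0.175), Rgma (0.95, adjusted p = 0.240), Sema4g (0.45, adjusted p = 0.305), Arhgef12 (0.39, adjusted p = 0.177), Rnd1 (−0.95, adjusted p = 0.177) and Nrcam (0.55, adjusted p = 0.200) had the smallest adjusted p of their lists.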

How the data were processed

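Total RNA of 12 samples (4 each of 3D, 2D and tissue) was hybridised to 1-colour Affymetrix mouse arrays. The authors deposited 1 table of log2 values, made with RMA in Affymetrix Expression Console (background adjustment, quantile normalization and probe summary). Versions are not given in the sources used here. Quantile normalization hides a shift shared by most genes. Scan dates were not used here.

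Control probe sets (64) were left out and 45037 tested. Symbols came from the platform annotation (34945 probe sets with 1 symbol, 932 with several and 9160 unnamed here, 34741 matched to a gene record). Each gene was stood for by its probe set of highest mean over 12 arrays. For each pair of groups a linear model was fitted to their 8 arrays (limma version 3.58.1, under R version 4.3.3, with moderated variances), and p-values were adjusted by Benjamini-Hochberg over all probe sets, with the threshold at 0.05. Differences are 3D minus 2D, 3D minus tissue and 2D minus tissue. The methods' t-test was an alternative. The dim limit was a value of 6 on at least 4 arrays, which 44 of the 48 genes passed. No 2 arrays were identical (smallest root mean square distance 0.190).

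The genes and lists were chosen with earlier results of these data known. Values on every array are given, in each comparison, for the 6 genes of largest difference in each direction past the threshold with no overlap, and for their ligand or receptor partners. For each pathway list, differences are given for the 3 genes of smallest adjusted p. Limits on precision come from 4 arrays per group. Alternatives were cyclic loess, centring on bright probe sets, 1 fit of all 12 arrays, a dim filter, the mean or the highest-SD probe set, a replicate block and leaving out arrays. The highest SD was that over all 12 arrays, so differences between groups entered that choice.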

Additional observations from a re-analysis of the deposited data

Results flagged for a closer look

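Across 144 groups of 4 arrays (48 genes in 3 groups), 13 had 1 array far from the other 3 by Dixon's 95% criterion, which chance flags in about 1 of 20 groups. Of these, 6 were on 3D replicate 1. On that array Sema3e read 9.27, against 10.70 to 10.94 on the other 3D arrays, Sema4f 10.83 (11.23 to 11.31), Epha5 9.81 (10.71 to 10.76) and Ephb3 8.89 (9.24 to 9.30), all low. On the same array Nrp1 at 11.88 (11.08 to 11.19) and Epha7 at 8.24 (7.53 to 7.61) were high. Ntn4 was high on 3D replicate 3, at 8.48 (7.49 to 7.61).

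In 2D, replicate 4 held Plxna1 at 9.17 (8.56 to 8.65 on the other 2D arrays) and Slit1 at 6.27 (6.57 to 6.62). Sema4b read 9.12 on 2D replicate 3 (8.35 to 8.42) and Sema5a 4.48 on 2D replicate 2 (5.05 to 5.16). In tissue, Sema4b read 8.23 on replicate 1 (8.61 to 8.66) and Epha3 5.29 on replicate 2 (5.70 to 5.76).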

How the results depend on the processing

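None of the calls against tissue changed direction under any alternative run, though most alternatives could not reverse them. The replicate block, the t-tests, the dim filter and the fit of all 12 arrays reuse the same mean difference. Leaving out arrays cannot reverse a call whose arrays do not overlap. Only Robo1 and Efna5 in 3D and Plxnc1 in 2D had calls with overlap. Without tissue replicates 2 and 3 the uncalled Ntn1 (2D, −0.70) and Plxna4 (3D, −0.46) changed sign and passed as lower. Of the 25 calls in 3D against tissue 18 held in every alternative and of the 13 in 2D against tissue 7 did, and those lost by leaving out 1 array are named beside their values. Leaving out each array in turn gave 12 to 15 higher and 7 to 12 lower in 3D against tissue, 5 to 9 higher and 3 to 8 lower in 2D against tissue, and between 3D and 2D 0 to 1 higher and 0 lower. Between 3D and 2D the methods' t-test without adjustment called 7 higher and 4 lower, and without both crossing arrays limma called 7 higher and 3 lower. In 3D against tissue the t-test with adjustment called 7 lower. In 2D against tissue the highest-SD probe set gave 16 higher and 8 lower. It was picked by its SD over all 12 arrays, which includes differences between groups, so extra calls are partly built in. The adjusted t-test gave 5 higher and 3 lower, and the unadjusted t-test 8 lower. Lower calls numbered 9 in the fit of all 12 arrays, 8 with the mean of probe sets and 9 without tissue replicates 2 and 3. Centring gave 10 lower, where lower calls over all genes went to 3021 from 1796. The cause of these shifts was not tested. Shares of all genes were not counted for fits without 1 array, the fit of all 12 arrays, or the mean or highest-SD probe set.

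Centring moved the median difference of all genes from tissue to −0.31 in both cultures, and the share higher among all genes called to 39.4% in 3D and 38.4% in 2D, from 56.5% and 59.1%, and cyclic loess gave 47.7% in both. Same-numbered arrays correlated from −0.10 to 0.35. Replicate 1 matched its own number best in every comparison, replicates 3 and 4 in some and replicate 2 in none. The labels give no pairing, and these correlations cannot decide whether the numbers mark a shared preparation. With the replicate block, 0 genes of the list passed between 3D and 2D (all genes 0.00%). In 3D against tissue 14 were higher and 11 lower (all genes 33.7%), and in 2D against tissue 9 higher and 6 lower (all genes 23.3%). The block dropped Sema3d (adjusted p = 0.0634) and Plxnb1 (0.0531) and added Sema3c and Epha5 in 3D, and dropped Plxnc1 (0.0533) and added Sema3c, Sema4a and Robo1 in 2D. The 4 arrays per group, RMA values without detection calls and mixed cells limit these comparisons.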

Other observations

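Of the 25 genes called in 3D against tissue 19 had other probe sets, and 10 of these had another probe set with the same call, 0 with an opposite call and 9 with none called. In 2D against tissue, 9 of 13 had other probe sets, 4 with the same call, 0 opposite and 5 with none called. Of the genes that did not pass, 12 of 23 in 3D against tissue and 12 of 35 in 2D against tissue had another probe set past the threshold, so a gene's own call rests on the probe set that stands for it.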
